A study of Mus musculus with 25 samples.

Results

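The genes described are fibronectin (Fn1), tenascin C (Tnc) and 8 integrin subunits that form receptors for them: Itga5, Itgav, Itga9 and Itga4 on the alpha side, and Itgb1, Itgb3, Itgb5 and Itgb6 on the beta side. They were chosen by symbol. Where several probe sets carried a gene's symbol and no other, the one with the highest average in that table stands for the gene. All 10 were measured on both array types, out of 18997 exon-array genes and 19938 gene-array genes. The study asked how contact with platelets changes carcinoma cells and whether it moves them towards a mesenchymal state. Expression was measured in mouse Ep5 cells, also named EpRas, a single line of Ras-transformed mammary epithelial cells that the labels give as C57BL/6, grown in medium with 10% serum. The exon arrays hold cells after 24 h with wild-type C57BL/6 platelets at roughly 1000 platelets per cell (platelets, n = 5). They also hold cells alone (n = 5) and cells that met the same number of platelets only at RNA isolation (lysis mix, n = 3). The lysis mix carries platelet RNA without a culture period with platelets. No culture time is labelled for the lysis mix, or for cells alone on either array type. The gene arrays hold cells after 24 h with platelets (platelets, n = 3), cells after 24 h with the spun-down and resuspended part of thrombin-treated platelets (pellet, n = 3), cells after 24 h with the fluid above it (releasate, n = 3), and cells alone (n = 3). All groups use the same line, and all platelets used were wild-type. Whether samples of a group were separate cultures is not labelled, and the p-values then reflect only how much these samples vary, which may be technical.

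Fibronectin is a matrix glycoprotein that cells assemble into fibrils outside the membrane, and its RGD motif is bound by several integrins. Tenascin C is a large hexameric matrix protein that is scarce in most adult epithelia and is induced around wounds and tumours. An integrin is a dimer of 1 alpha and 1 beta subunit: Itga5 with Itgb1 makes the main fibronectin receptor, Itgav pairs with Itgb1, Itgb3, Itgb5 or Itgb6, and Itga9 and Itga4 pair with Itgb1. In epithelial cells that lose their junctions, more fibronectin is a classical mesenchymal sign, and Itgav with Itgb6 is known for activating latent TGF-beta in epithelia. Itgb3 also pairs with Itga2b on platelets, where the dimer binds fibrinogen.

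Of the members with higher values in platelet co-cultures than in both exon-array controls, Tnc, Itga5, Itgb5 and Itgb6 have an entry among the RefSeq promoter windows of GRCm38.p6. Their 250 bases before the transcription start are shown, 5′ to 3′ on the gene's strand, because these genes were called higher against both controls. Shared regulation was not tested. Capitals mark the letters matched by a searched motif. The windows lie at chr4:64047016-64047265 on the minus strand for Tnc, chr15:103366792-103367041 on the minus strand for Itga5, chr16:33829415-33829664 on the plus strand for Itgb5, and chr2:60722604-60722853 on the minus strand for Itgb6.
Tnc: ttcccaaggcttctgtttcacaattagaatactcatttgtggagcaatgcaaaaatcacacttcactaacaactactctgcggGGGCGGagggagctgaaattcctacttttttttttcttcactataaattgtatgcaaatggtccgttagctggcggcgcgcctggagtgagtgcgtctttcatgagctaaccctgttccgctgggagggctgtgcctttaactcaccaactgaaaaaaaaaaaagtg
Itga5: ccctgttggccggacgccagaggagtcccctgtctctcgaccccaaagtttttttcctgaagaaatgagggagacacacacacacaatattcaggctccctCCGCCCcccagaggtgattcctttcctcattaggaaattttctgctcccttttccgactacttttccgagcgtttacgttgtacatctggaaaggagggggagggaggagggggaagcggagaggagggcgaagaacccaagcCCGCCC
Itgb5: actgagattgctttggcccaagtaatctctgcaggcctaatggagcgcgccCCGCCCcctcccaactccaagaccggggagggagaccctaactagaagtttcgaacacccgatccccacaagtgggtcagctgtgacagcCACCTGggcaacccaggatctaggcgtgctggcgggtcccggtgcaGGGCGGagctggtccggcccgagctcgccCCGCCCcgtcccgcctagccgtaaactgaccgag
Itgb6: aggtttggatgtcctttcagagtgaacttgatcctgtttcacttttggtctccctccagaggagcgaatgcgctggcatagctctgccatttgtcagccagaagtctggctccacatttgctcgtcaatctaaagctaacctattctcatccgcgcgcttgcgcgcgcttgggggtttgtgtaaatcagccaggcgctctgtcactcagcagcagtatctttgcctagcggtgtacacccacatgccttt

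In all, 8 of the 10 members had such an entry, with 10 windows between them, since Tnc and Itgb6 have 2 starts each and the start farther upstream is printed. Letters were searched on both strands, each motif on its own, so that matches of different motifs could share letters. The Sp1 letters GGGCGG occurred once in the printed Tnc window, 2 times for Itga5, 3 times for Itgb5 and once each for Itgb1 and Itga4, and they occur in 32.7% of all 32851 windows of that length. The E-box letters CACCTG, bound by the SNAI and ZEB repressors of epithelial genes, occurred in the printed Itgb5 window, in the other Itgb6 window and 2 times for Itga9, against 17.2% of all windows. The SMAD letters CAGACA occurred in the other Tnc window and for Itgb1 and Itga4, against 17.1% of all windows. The TEAD letters GGAATG occurred for Itgb1 alone among the members, against 12.6% of all windows. The AP-1 letters TGANTCA (6.75% of all windows) and the NF-kappaB letters (GGG, 2 free bases and TTTCC, 1.41%) were in no member's window. The printed Itgb6 window held none of the 6 motifs.

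Values are log2 RMA summaries of probe sets, so that a difference of 1 is a doubling of signal. They are compared for 1 gene across groups of 1 array type, never between genes or array types. Mammary epithelial markers were high, as the label of the line has it: the mean of 7 of them, with Epcam, Cdh1 and Krt8 on the list, lay at 9.96 to 10.4 on platelet arrays, 10.0 to 10.3 on lysis mix arrays and 10.1 to 10.4 on arrays of cells alone. On the gene arrays their mean lay between 9.84 and 10.24 over all groups. Fibroblast markers (6 genes) lay at 3.75 to 4.14 on platelet arrays, 3.64 to 3.77 on lysis mix arrays and 3.57 to 3.81 on arrays of cells alone, where the array medians were 3.62 to 3.90. The mean of leukocyte markers (6 genes) lay at 3.96 to 4.23 on platelet arrays, 3.91 to 4.15 on lysis mix arrays and 3.36 to 3.63 on arrays of cells alone. This mean was thus higher in both groups with platelets, but the median difference of the 6 from cells alone was 0.125 with platelets and -0.003 in the lysis mix. Of the 6, 2 were called higher with platelets than alone and 0 in the lysis mix. On the gene arrays the mean of 7 leukocyte markers lay at 4.817 to 4.888 with platelets and 4.802 to 4.865 alone. The part of these cell types in the results was not tested. A change in RNA per cell and a change in the share of cells that make it cannot be told apart in such bulk samples. The platelet description of 2 gene arrays, platelets 9 and alone 8, goes against their source names, which were followed here. The platelet RNA Pf4 lay at 6.01 on platelets 9 and at 4.63 to 4.83 on the 3 arrays of cells alone.

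On the exon arrays, 6 of the 10 genes rose in platelet co-cultures against cells alone: both ligands, the alpha subunit Itga5, and the beta subunits Itgb3, Itgb5 and Itgb6. The same 6 rose against the lysis mix, and none fell in either comparison, which share the platelet arrays. The calls of Itgb3 and Itgb5 against the lysis mix were lost when the replicate number was fitted as a block. Fn1, Tnc and Itga5 had the largest differences, near 4-fold. Itgav and Itgb1, the shared partners in these receptors, did not pass the test, and Itga9 and Itga4 were low on every array. Tests are limma fits over all genes of a table, with Benjamini-Hochberg adjustment and a threshold of 0.05. At that threshold 2.07% of all genes were higher and 2.47% lower in platelet co-cultures than in cells alone, and 1.54% were higher and 2.14% lower than in the lysis mix. The median difference over the 10 members was 0.90 against cells alone and 0.99 against the lysis mix, where the median over all genes was 0.00 and 0.04.

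**Figure D1:**
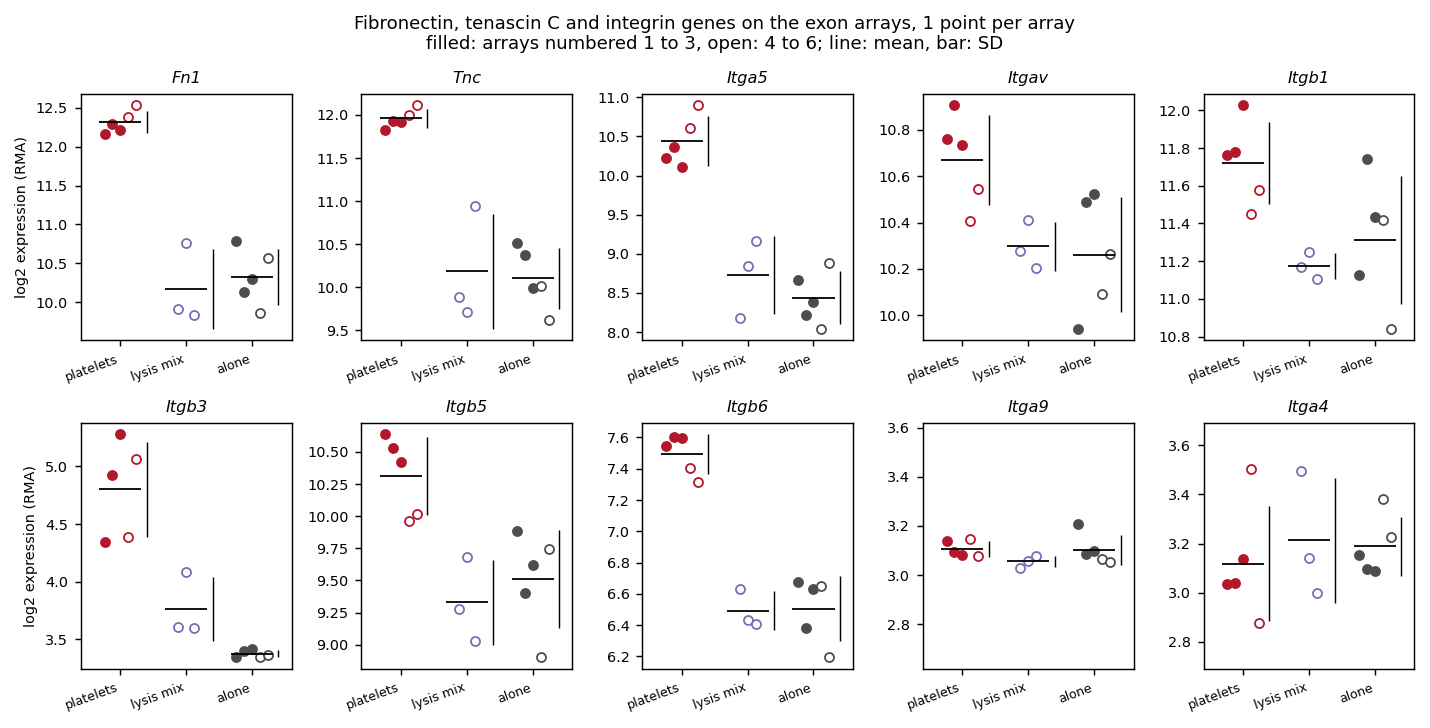
Log2 expression of the 10 genes on the 13 exon arrays, 1 panel per gene and 1 point per array, with the group mean as a line and the SD as a bar; the vertical scale differs between panels. In the panels for Fn1, Tnc, Itga5, Itgb3, Itgb5 and Itgb6 every platelet array lies above every lysis mix array and every array of cells alone. How many of all genes separate in this way was not counted.

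Fn1 had values of 12.17, 12.30, 12.21, 12.38 and 12.53 on the 5 platelet arrays, against 9.92, 10.76 and 9.84 on the lysis mix arrays and 10.78, 10.13, 10.29, 9.87 and 10.57 on the arrays of cells alone. The lowest platelet array was thus more than 1 log2 unit above the highest of either control. The difference was 1.99 ± 0.20 (SE) against cells alone, a 3.97-fold rise (adjusted p = 8.07e-05, limma), and 2.15 ± 0.23 against the lysis mix (adjusted p = 0.000243). Lysis mix and cells alone overlapped and differed by -0.16 ± 0.23 (adjusted p = 0.951). A further exon-array probe set of Fn1, which the selection rule left out, averaged 11.88 ± 0.18 (SD, n = 5) with platelets, 9.27 ± 0.62 (n = 3) in the lysis mix and 9.44 ± 0.20 (n = 5) alone. It gave differences of 2.45 ± 0.19 and 2.62 ± 0.22 against cells alone and the lysis mix.

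Tnc had values of 11.83, 11.93, 11.92, 12.003 and 12.11 on the platelet arrays, against 9.89, 9.72 and 10.95 in the lysis mix and 10.51, 10.38, 9.99, 10.02 and 9.62 alone. All platelet arrays lay within a narrow band above both controls, while lysis mix 6 was the highest of the 8 control arrays. Tnc rose by 1.86 ± 0.22 against cells alone, a 3.62-fold rise (adjusted p = 0.000286, limma), and by 1.77 ± 0.25 against the lysis mix (adjusted p = 0.00173). The lysis mix minus cells alone gave 0.08 ± 0.25 (adjusted p = 0.974). For both ligands the lysis mix overlapped the cells alone, and the platelet co-cultures lay above both.

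Itga5, the alpha subunit of the main fibronectin receptor, had values of 10.22, 10.37, 10.10, 10.60 and 10.89 with platelets, against 8.18, 8.84 and 9.16 in the lysis mix and 8.67, 8.22, 8.38, 8.04 and 8.89 alone. No platelet array overlapped a control, and lysis mix arrays lay among or just above those of cells alone. The rise was 2.00 ± 0.21 against cells alone, the 32nd highest difference of 18997 genes (adjusted p = 0.00014, limma), with Fn1 next at rank 33 and Tnc at rank 43. Against the lysis mix it was 1.71 ± 0.25 (adjusted p = 0.00187). Its partner Itgb1 ranged from 11.45 to 12.03 with platelets, 11.11 to 11.25 in the lysis mix and 10.84 to 11.74 alone. The Itgb1 differences were 0.41 ± 0.15 against cells alone (95% interval 0.07 to 0.74, adjusted p = 0.217) and 0.55 ± 0.18 against the lysis mix (0.16 to 0.93, adjusted p = 0.141), so that no call was made although the interval leaves out 0 in both. Itgb1 values on platelet arrays overlapped those of cells alone but not those of the lysis mix.

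Itgav, the alpha subunit shared by the receptors with Itgb3, Itgb5 and Itgb6, ranged from 10.41 to 10.91 with platelets, 10.20 to 10.41 in the lysis mix and 9.94 to 10.52 alone. Its groups overlapped, and the differences of 0.41 ± 0.13 against cells alone (adjusted p = 0.105, limma) and 0.37 ± 0.14 against the lysis mix (adjusted p = 0.244) were not past the threshold. Itga9, a tenascin C receptor subunit, averaged 3.11 ± 0.03 (SD, n = 5) with platelets, 3.06 ± 0.02 (n = 3) in the lysis mix and 3.10 ± 0.06 (n = 5) alone. Itga4, which binds an alternatively spliced part of fibronectin, averaged 3.12 ± 0.23, 3.21 ± 0.26 and 3.19 ± 0.12 in the same order. Both lay below the median of all probe sets on every exon array, where background can set a value, and their differences of 0.00 ± 0.05 and -0.07 ± 0.12 against cells alone had adjusted p of 0.997 and 0.947. Itga4 is also covered by probe sets shared with Cerkl, which were not used.

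Itgb6, the epithelial partner of Itgav, had values of 7.55, 7.60, 7.60, 7.41 and 7.32 with platelets, against 6.63, 6.43 and 6.41 in the lysis mix and 6.67, 6.38, 6.63, 6.65 and 6.19 alone. Every platelet array lay above every control, and the 2 controls overlapped. The rise was 0.99 ± 0.10 against cells alone, 1.98-fold (adjusted p = 0.000122, limma), and 1.00 ± 0.12 against the lysis mix (adjusted p = 0.000508). Itgb5, which makes a vitronectin receptor with Itgav, had values of 10.64, 10.53, 10.42, 9.96 and 10.02 with platelets, against 9.28, 9.68 and 9.03 in the lysis mix and 9.88, 9.40, 9.62, 8.90 and 9.74 alone. Its platelet arrays also lay above all controls, the lowest by less than 0.1. The difference was 0.80 ± 0.20 against cells alone (adjusted p = 0.0403, limma) and 0.98 ± 0.23 against the lysis mix (adjusted p = 0.0339). These 2 calls are near the threshold. The first was lost in 6 of 10 fits that each left out 1 array (alone 2, 3 or 4, or platelets 1, 2 or 3, adjusted p up to 0.109), and the second in 5 of 8 (platelets 1, 2 or 3, or lysis mix 4 or 6, adjusted p up to 0.182), with differences of 0.65 to 0.90 and 0.83 to 1.16.

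**Figure D2:**
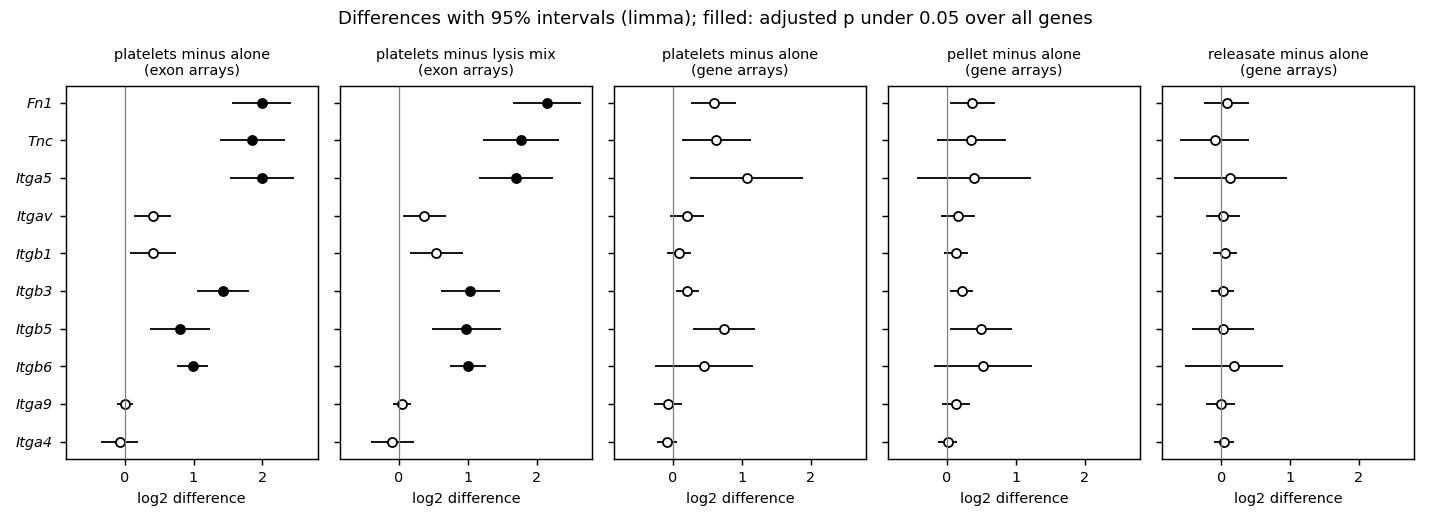
Log2 differences of the 10 genes with 95% intervals from limma in 5 comparisons, with filled points where the adjusted p over all genes was under 0.05. On the exon arrays 6 genes are filled against cells alone and against the lysis mix, and no gene is filled on the gene arrays.

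Itgb3 RNA is known to be present in platelets, which makes the lysis mix the control to set beside it. The gene had values of 4.35, 4.92, 5.28, 4.39 and 5.06 with platelets, against 3.61, 4.09 and 3.60 in the lysis mix and 3.34, 3.40, 3.42, 3.35 and 3.37 alone. The 3 groups did not overlap, with the lysis mix between the other two. Cells alone and lysis mix 4 and 6 lay below the array medians, so their values may be set by background and the differences understated. The rise was 1.43 ± 0.17 against cells alone, 2.69-fold (adjusted p = 0.00032, limma), and 1.04 ± 0.20 against the lysis mix (adjusted p = 0.0103). The lysis mix exceeded cells alone by 0.39 ± 0.20 (95% interval -0.04 to 0.82, adjusted p = 0.945, limma), a difference the test did not call. The call against the lysis mix was lost without lysis mix 4 (0.96, adjusted p = 0.0504) and without lysis mix 6 (0.95, adjusted p = 0.0667).

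The level of platelet RNA differed between arrays and can be set beside Itgb3. The mean of 13 measured platelet markers was 6.11, 6.05, 6.52, 4.75 and 5.25 on the 5 platelet arrays, against 5.65, 5.96 and 5.70 in the lysis mix and 3.71 to 4.02 alone. Of these markers 8 were higher with platelets than alone, 5 were higher in the lysis mix than alone, and none differed past the threshold between platelets and lysis mix. Platelets 4 and 5 thus carried less platelet marker RNA than every lysis mix array, and their Itgb3 values of 4.39 and 5.06 were above all 3 of them. Pf4, a platelet chemokine, lay at 6.49 to 7.77 with platelets, 8.06 to 8.32 in the lysis mix and 3.13 to 3.36 alone. Itga2b, the partner of Itgb3 on platelets, lay at 3.88 and 3.99 on platelets 4 and 5, against 4.19, 4.11 and 3.76 in the lysis mix and 3.64 to 4.06 alone. Over all 5 platelet arrays Itga2b differed by 0.56 ± 0.24 from cells alone (adjusted p = 0.31, limma) and by 0.35 ± 0.28 from the lysis mix (adjusted p = 0.655). On platelets 3, which had the highest platelet marker mean, Itga2b reached 5.42 and Itgb3 its highest value of 5.28. The part of platelet RNA in the Itgb3 difference within the co-cultures was not tested.

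**Figure D3:**
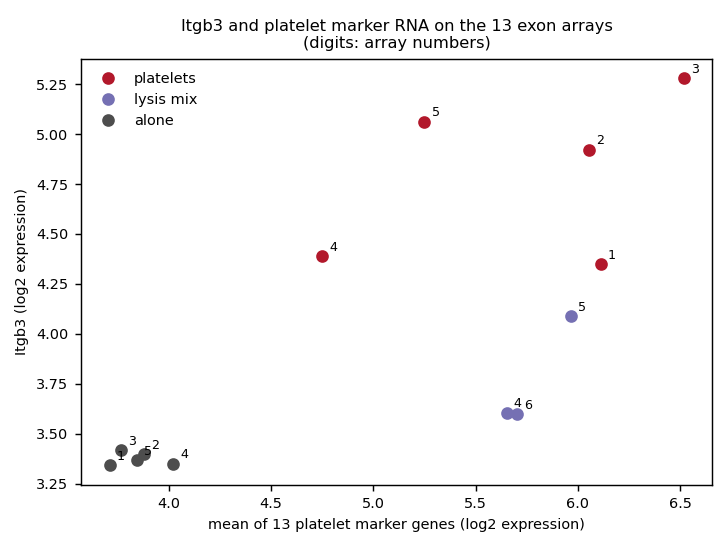
Itgb3 (vertical axis, log2 expression) against the mean of 13 platelet marker genes (horizontal axis, log2 expression), 1 point per exon array with its array number. Platelets 4 and 5 lie to the left of all 3 lysis mix arrays and above them, while cells alone lie at the lower left.

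For the other members the lysis mix differed from cells alone by -0.18 to 0.29, and limma called none of the 10 genes, with 0 at an unadjusted p under 0.05. Over all genes 0.0474% were higher and 0% lower in the lysis mix than alone, and 748 genes had an unadjusted p under 0.05.

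The exon arrays carry the numbers 1 to 3 and 4 to 6, and lysis mixes have only the second set. Within numbers 1 to 3, platelet co-cultures exceeded cells alone by 1.82 for Fn1, 1.60 for Tnc, 1.81 for Itga5, 1.47 for Itgb3, 0.89 for Itgb5 and 1.02 for Itgb6 (adjusted p of 0.0011 to 0.0148, limma). Within numbers 4 and 5 the differences were 2.24 for Fn1, 2.24 for Tnc, 2.28 for Itga5, 1.37 for Itgb3, 0.67 for Itgb5 and 0.94 for Itgb6, with 2 arrays a group and no call (adjusted p of 0.14 to 0.701). The test of the difference between the sets gave -0.64 ± 0.24 for Tnc (unadjusted p = 0.0277, adjusted p = 0.685) and no call for any gene. With the 2 sets as a block, 5 of the 6 calls against the lysis mix remained, with Itgb3 at 0.99 (adjusted p = 0.044, limma), and Itgb5 lost its call at 0.73 (adjusted p = 0.139).

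The gene arrays address which part of a platelet preparation goes with a change in these cells. After whole platelets, none of the members passed the threshold. Values of Fn1, Tnc, Itga5, Itgav, Itgb3 and Itgb5 were higher on every platelet array than on any array of cells alone. The share of all genes that separate in this way was not counted. For Itgav the lowest platelet array had 11.07 and the highest array of cells alone 11.06, and for Itgb3 these were 5.23 and 5.21. With platelets minus alone, limma called 0 of the 10 members and 5 had an unadjusted p under 0.05 (Fn1, Tnc, Itga5, Itgb3 and Itgb5), where 0.411% of all genes were called higher and 0.256% lower, and 1916 had an unadjusted p under 0.05. The median difference was 0.33 over the members and 0.00 over all genes. With the replicate number as a block, which the deviations of same-numbered arrays bear out for this comparison, all-gene calls were 234 higher and 220 lower in place of 82 and 51, and still 0 members. Fn1 (adjusted p = 0.0515), Itgb5 (0.0567) and Itgb6 (0.0713) were then closest to the threshold.

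**Figure D4:**
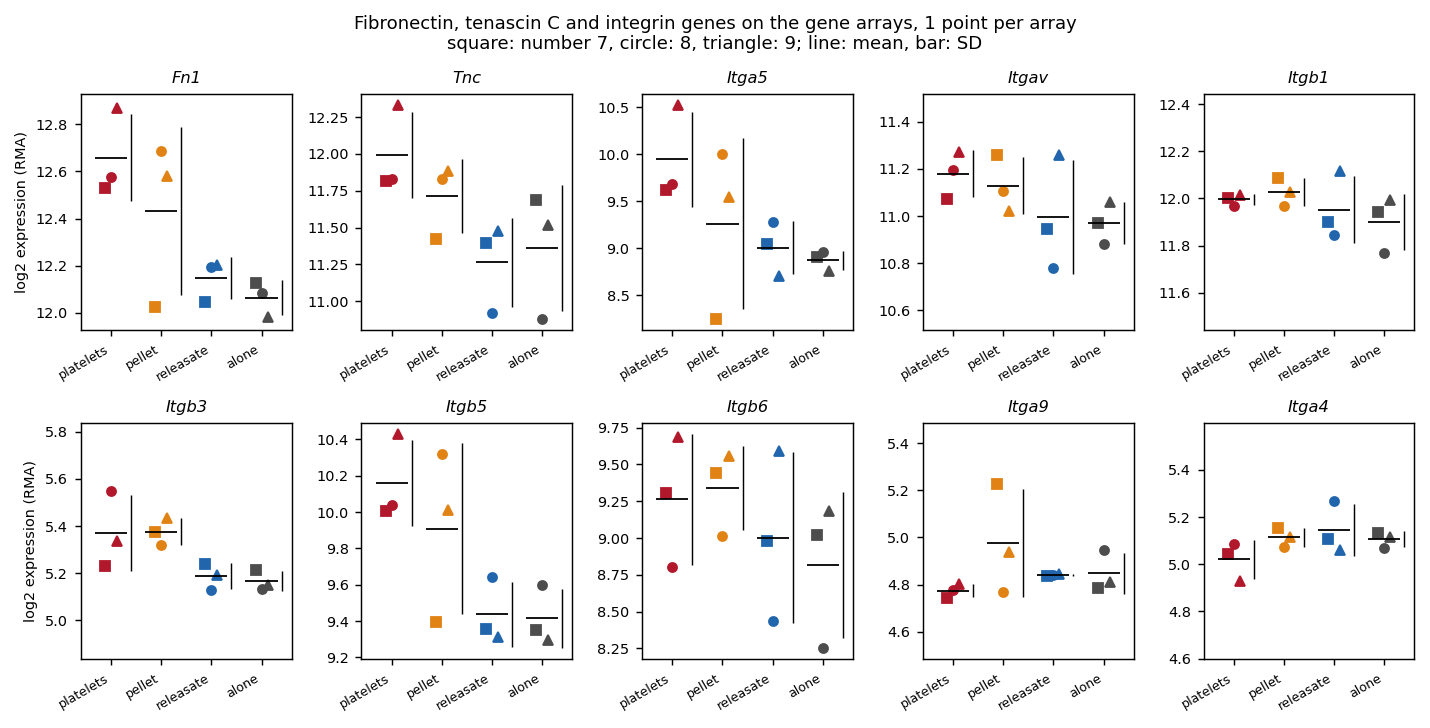
Log2 expression of the 10 genes on the 12 gene arrays, 1 panel per gene and 1 point per array, with the number of the array as the symbol, the group mean as a line and the SD as a bar; the vertical scale differs between panels. For Fn1, Tnc, Itga5 and Itgb5 every platelet array lies above every releasate array and every array of cells alone. How many of all genes separate in this way was not counted. The pellet arrays spread widely for Fn1, Itga5 and Itgb5, with pellet 7 among or below the arrays of cells alone.

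Fn1 had values of 12.53, 12.57 and 12.87 with platelets (numbers 7, 8 and 9), 12.03, 12.69 and 12.58 with pellet and 12.05, 12.19 and 12.20 with releasate, against 12.13, 12.09 and 11.98 alone. Whole platelets lay above all arrays of cells alone and of releasate, and pellet 7 lay among the cells alone while pellets 8 and 9 lay with the platelets. The differences from cells alone were 0.59 ± 0.15 for platelets (adjusted p = 0.121, limma), 0.37 ± 0.15 for pellet (adjusted p = 0.444) and 0.08 ± 0.15 for releasate (adjusted p = 1). Without pellet 7 the pellet difference was 0.57 (adjusted p = 0.0372), the single member called in any fit of pellet against cells alone that left out 1 array. Tnc had values of 11.82, 11.83 and 12.33 with platelets, 11.42, 11.83 and 11.89 with pellet and 11.40, 10.92 and 11.47 with releasate, against 11.69, 10.88 and 11.52 alone. Alone 8 and releasate 8 were the lowest arrays for Tnc, and platelets minus alone was 0.63 ± 0.23 with all arrays (adjusted p = 0.342) and 0.22 without alone 8 and platelets 9 (adjusted p = 0.849).

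Itga5 had values of 9.62, 9.69 and 10.52 with platelets, 8.24, 10.00 and 9.54 with pellet and 9.04, 9.28 and 8.71 with releasate, against 8.90, 8.96 and 8.76 alone. Pellet 7 lay below all other arrays of the table, and pellets 8 and 9 lay within the range of whole platelets or just under it. The differences from cells alone were 1.07 ± 0.38 for platelets (adjusted p = 0.327, limma), 0.39 ± 0.38 for pellet (adjusted p = 0.834; 0.90 without pellet 7, adjusted p = 0.208) and 0.13 ± 0.38 for releasate (95% interval -0.69 to 0.96). Platelets minus pellet was 0.68 ± 0.38 for Itga5, the highest of 19938 genes but not past the threshold (adjusted p = 0.974). That size rests on pellet 7, since it was 0.17 without this array. Itgb5 had values of 10.01, 10.04 and 10.43 with platelets, 9.39, 10.32 and 10.01 with pellet and 9.36, 9.64 and 9.31 with releasate, against 9.35, 9.60 and 9.29 alone. Releasate and cells alone coincided, and pellet 7 lay with them. The differences were 0.74 ± 0.20 for platelets (adjusted p = 0.163), 0.49 ± 0.20 for pellet (adjusted p = 0.453; 0.75 without pellet 7, adjusted p = 0.071) and 0.02 ± 0.20 for releasate (adjusted p = 1).

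Itgb3 lay below the gene-array medians of 5.56 to 5.63 throughout, at 5.23 to 5.55 with platelets, 5.32 to 5.44 with pellet and 5.13 to 5.24 with releasate, against 5.13 to 5.21 alone. It differed from cells alone by 0.21 ± 0.08 for platelets (adjusted p = 0.365, limma) and 0.21 ± 0.08 for pellet (adjusted p = 0.368). Platelet markers (11 genes, of which 2 were called higher with platelets and 2 with pellet) had a mean of 6.08 to 6.11 with platelets, 5.98 to 6.08 with pellet and 5.53 to 5.64 with releasate, against 5.63 to 5.79 alone. Their part in the Itgb3 values was not tested, and these arrays have no lysis mix. Itga2b differed by -0.08 ± 0.11 between platelets and cells alone. Itgb6 spread widely within groups, at 8.80 to 9.69 with platelets, 9.01 to 9.56 with pellet and 8.43 to 9.59 with releasate, against 8.25 to 9.18 alone, and its differences of 0.45 ± 0.32, 0.52 ± 0.32 and 0.19 ± 0.32 were not called. Number 8 was the lowest array of Itgb6 in all 4 groups. Under a replicate block the Itgb6 difference was called with pellet (adjusted p = 0.0447, limma) and not with platelets (0.0713). Pellet 7 and alone 7 did not deviate together over all genes (r of -0.0374). Itgav, Itgb1, Itga9 and Itga4 differed from cells alone by -0.09 to 0.21 with platelets, 0.01 to 0.16 with pellet and -0.01 to 0.05 with releasate.

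Against cells alone, limma called 0 of the 10 members with pellet and 0 with releasate, and 3 (Fn1, Itgb3 and Itgb5) and 0 had an unadjusted p under 0.05. Over all genes the calls were 0.236% higher and 0.181% lower with pellet, and 0% higher and 0% lower with releasate, where 1921 and 563 genes had an unadjusted p under 0.05. The median over the members was 0.28 with pellet and 0.03 with releasate. Against releasate, 5 members had an unadjusted p under 0.05 with platelets (Tnc 0.73, Itga5 0.94, Itgb5 0.72, Fn1 0.51 and Itgb3 0.18) and 2 with pellet (Itgb5 0.47 and Itgb3 0.19), and limma called 0 in both. Calls over all genes were 0.0351% higher and 0.01% lower for platelets against releasate (1320 genes at an unadjusted p under 0.05), and 0% higher and 0.00502% lower for pellet against releasate (1139 genes). For platelets against pellet, 0 members were called and 0 had an unadjusted p under 0.05, with 0% of all genes higher and 0% lower (503 genes at an unadjusted p under 0.05). Comparisons with a shared control use the same arrays of cells alone or of releasate. The direct test of whether the platelet difference exceeds the sum of the pellet and releasate differences called no gene, and gave 0.55 ± 0.53 for Itga5 (adjusted p = 0.983).

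Most other genes of the pathway were not called between platelets and cells alone on the exon arrays. There were 3 calls among 17 other integrin subunits, 3 among 22 ligands and 1 among 25 adaptors and co-receptors. These calls went in both directions, and 2.07% of all genes were called higher and 2.47% lower. The median difference was 0.01 over the ligands and 0.16 over the adaptors and co-receptors, against 0.00 over all genes. Of 17 measured other integrin subunits, 1 rose with platelets against cells alone, 2 fell and 14 were not called, with a median of -0.01. Itga2, the collagen receptor subunit, averaged 9.97 ± 0.06 with platelets and 9.14 ± 0.41 alone (SD, n = 5 each), a difference of 0.83 ± 0.16 (adjusted p = 0.00861, limma) that was 0.59 ± 0.18 against the lysis mix (adjusted p = 0.122). Itga3, a laminin receptor subunit of epithelia, fell by 0.43 (adjusted p = 0.00938), at 11.71 ± 0.05 with platelets and 12.14 ± 0.12 alone. Itgb7, known from lymphocytes, fell by 1.76 (adjusted p = 0.000875), at 4.32 ± 0.08 with platelets and 6.08 ± 0.61 alone. Itga3 and Itgb7 also fell against the lysis mix, by 0.44 (adjusted p = 0.021) and 1.51 (adjusted p = 0.00886).

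Of 22 measured other ligands, 2 rose, 1 fell and 19 were not called against cells alone. Ccn1, a matricellular protein bound by Itgav integrins, averaged 8.83 ± 0.18 with platelets and 7.73 ± 0.41 alone and rose by 1.10 ± 0.24 (adjusted p = 0.0185, limma), with 0.80 ± 0.28 against the lysis mix (adjusted p = 0.168). Postn, or periostin, a matrix protein that binds both tenascin C and Itgav integrins, rose by 0.30 ± 0.06 (adjusted p = 0.00811), at values of 3.24 ± 0.09 with platelets and 2.94 ± 0.03 alone that lie below the array medians. Npnt, or nephronectin, a basement membrane protein, averaged 5.57 ± 0.23 with platelets and 7.85 ± 0.64 alone and fell by 2.28 (adjusted p = 0.0006), and by 2.54 against the lysis mix (adjusted p = 0.00126). Npnt was thus the single ligand on this list that fell. On the gene arrays Postn rose by 0.63 ± 0.11 with platelets (adjusted p = 0.0293) as the single call among 22 ligands.

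Of 25 measured adaptors and co-receptors, 1 rose and 24 were not called. Fermt1, or kindlin-1, which binds beta subunit tails and activates integrins in epithelia, averaged 10.80 ± 0.10 with platelets and 8.74 ± 0.25 alone, a rise of 2.06 ± 0.11 (adjusted p = 4.58e-07, limma), and of 2.09 ± 0.13 against the lysis mix (adjusted p = 2.95e-06). On the gene arrays Fermt1 averaged 10.79 ± 0.33 with platelets, 10.57 ± 0.23 with pellet and 9.78 ± 0.32 with releasate, against 9.46 ± 0.06 alone (SD, n = 3 each). It rose by 1.32 ± 0.18 with platelets (adjusted p = 0.0101) and by 1.11 ± 0.18 with pellet (adjusted p = 0.0298), and differed by 0.32 ± 0.18 with releasate (adjusted p = 1). Fermt1 was the single call among 27 adaptors in each of the first 2 comparisons. None of the 18 other integrin subunits was called there with platelets, pellet or releasate, and no gene of these 3 lists was called between lysis mix and cells alone.

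The genes nearest in pattern to Fn1, Tnc and Itga5 were found by the root mean square difference of centred group means over the 7 groups of both array types, among 17491 genes. For Fn1 these were Edn1 (endothelin 1, 0.068), Prss46 (0.086), Pde4dip (0.093) and Bhlhe40 (0.10), where the median gene had 0.66. For Tnc they were Acpp (0.095), Krt16 (a keratin of stressed epithelia, 0.10), Timp3 (an inhibitor of matrix proteases, 0.10) and Fgd1 (0.10), against a median of 0.60. For Itga5 they were Krt16 (0.10), Ust (0.10), Acpp (0.14) and Tnc (0.14), against 0.65. All 10 of these genes, Tnc included, rose with platelets against cells alone on the exon arrays, by 1.59 (Acpp) to 2.26 (Bhlhe40), which their choice by likeness fixes.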

How the data were processed

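Log2 expression values were deposited by the authors for 13 exon arrays and 12 gene arrays of mouse cells, processed with Partek 6.4 and RMA (exon arrays) and Partek 6.5 and RMA (gene arrays) per the submitters' processing notes. The labelling kits also differ between array types per the labels, and the RMA options and genome build are not given in the sources used here. Groups were taken from source names. Of 44343 exon-array probe sets 22781 have 1 symbol, and of 35556 gene-array probe sets 21789. Among a gene's single-symbol probe sets the one with the highest mean was used. The tables were fitted separately, all groups of a table together (limma 3.58.1 in R 4.3.3, 1 mean per group, empirical Bayes, Benjamini-Hochberg adjustment over all genes, threshold 0.05), after the code was tested on simulated data. Members, gene lists and comparisons were chosen with earlier results of these data known. Named outside the members are listed genes past the threshold in platelets minus alone on either array type, up to 4 per list, Itga2b, and the 4 nearest patterns of Fn1, Tnc and Itga5. Alternatives were quantile normalization, equal medians, means of probe sets, a level filter, array weights, trend and robust moderation, fits of 2 groups, blocks, left-out arrays and sets of numbers. Same-numbered gene arrays deviated together between platelets and alone (r of 0.287 to 0.442) and between releasate and alone (0.292 to 0.381), which pairs them from the data and not from a label. Exon arrays were not taken as paired, since r was -0.255 to 0.583 over 5 pairs of platelets and alone. The lysis mix shares only 2 numbers with either group (r of -0.0455 and 0.502 with platelets, 0.652 and 0.44 with alone). Several of these r reach those of the gene arrays, so pairing of exon arrays is not excluded. Arrays carry no read depth, so their number limits the precision.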

Additional observations from a re-analysis of the deposited data

Results flagged for a closer look

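Itga9 on the exon array alone 1 had a log2 value of 3.207, apart from the other 4 arrays of cells alone, of which the highest had 3.098. This was 1 of 20 groups of 5 arrays examined for a sample far from the rest, and chance flags about 1 in 20. All these values lie below the median of all probe sets on their arrays.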

How the results depend on the processing

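In 1453 refits of member differences under other settings, 37 lost a call, 10 gained one and 1406 stayed on the same side of the threshold, most of them uncalled throughout. No difference called in either fit changed sign. Of the 1406, 80 changed sign and were uncalled in both fits, the largest of 0.45. With exon arrays numbered 4 to 6 alone, an alternative chosen after seeing the data, the count of members higher with platelets was 0 against cells alone and 0 against the lysis mix, and within numbers 4 and 5 it was 0 against cells alone; fewer arrays entered these fits. The differences of the 6 genes called with all arrays were then 0.67 to 2.28 against cells alone and 0.66 to 2.29 against the lysis mix, and those of the other 4 were -0.11 to 0.38 and -0.02 to 0.34. Array weights gave 2 higher members on the gene arrays for platelets minus alone (Fn1 and Itgb5) and 2 for pellet minus alone (Fn1 and Itgb5). The replicate block gave 1 for pellet minus alone (Itgb6, 0.52, adjusted p = 0.0447, limma), and leaving out 1 array gave 0 to 1. The causes were not tested. On the exon arrays numbers were not taken to pair the samples. Of the platelet and alone arrays 4 of 10 correlated best with their own number, which does not exclude pairing. With the block on the exon arrays, Itgb3 and Itgb5 lost their calls against the lysis mix (adjusted p = 0.0655 and 0.19, limma). Itgav gained one against cells alone (0.0421). All-gene calls under the block were 576 higher and 750 lower for platelets minus alone on the exon arrays, 196 and 276 against the lysis mix, 187 and 172 for pellet minus alone, and 51 and 47 for platelets minus releasate. It changed no other call of a member. Without alone 8 and platelets 9, all-gene calls for platelets minus alone on the gene arrays were 18 higher and 12 lower, and Itgb6 differed by -0.05. Array weights gave 2628 higher and 1774 lower genes against the lysis mix, and calls for Itgav (adjusted p = 0.0141) and Itgb1 (0.00549), and for Itgav against cells alone (0.0403). Itgb5 against cells alone was lost with repeated quantile normalization (0.0517) and with only the 2 groups (0.0506), and Itgb3 against the lysis mix with only the 2 groups (0.0586).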
